A study of Homo sapiens with 4 samples.

Results

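The p53 pathway was followed through 9 genes, MDM2, MDM4, PPM1D, PLK2, SESN1, ZMAT3, GDF15, BAX and BBC3, in human cells that carry SV40 large T. They were taken by name and found by symbol through their Ensembl identifiers, and all 9 were among the 69222 gene identifiers counted and the 20319 genes with enough counts to be tested. HEK293T is a human embryonic kidney line. Its cells were infected with a lentivirus that encodes a short hairpin RNA, either a control hairpin (shCtrl, 2 libraries) or a hairpin against RPRD1B (shRPRD1B, 2 libraries), and poly(A) RNA was sequenced. RPRD1B binds the phosphorylated C-terminal domain of RNA polymerase II, and the series title ties it to the polyadenylation of cell cycle genes. All 4 libraries come from 1 established line, so they show no other genetic background, and no untransduced cells were analysed here. Whether replicates are separate cultures is not stated in the labels. The p-values therefore measure only the spread between these libraries, which may be technical.

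The transcription factor p53 responds to DNA damage and other stress by switching on genes that stop the cell cycle, repair DNA or start apoptosis. MDM2, itself a p53 target, marks p53 for degradation, which closes a negative feedback loop. In HEK293T the large T antigen binds the DNA-binding domain of p53. The protein then accumulates while its activity as a transcription factor is held back, so a p53 target that is well expressed in this line need not be driven by p53. Large T and p53 itself were not analysed here.

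RefSeq promoter windows (GRCh38.p14, 250 bases before to 50 bases after a transcription start) were available for all 9 genes, 15 windows in all. They were searched for the p53 response element, which is a pair of 10-base units that each read nearly the same on both strands. A match had at most 3 mismatches to the pair, the central C and G of each unit intact, and at most 1 base between the units. Such a match was present in 4 of the 15 windows, against 2.38% of all 35116 windows, and these 4 belong to 3 of the 9 genes. It lay in both windows of the internal start of MDM2, which overlap and hold the same match. The others were the window of the most downstream RefSeq start of SESN1 and that of GDF15. The stretches of MDM2 (chr12:68808903-68809016, plus strand, from 114 bases to 1 base before the start) and SESN1 (chr6:109008989-109009057, minus strand, from 69 bases to 1 base before the start) and the 20-base match of GDF15 (chr19:18386186-18386205, plus strand, 29 to 48 bases after the start) are shown because the response element is what ties these genes to p53. Capitals mark the match with the fewest mismatches. Lower-case letters are not thereby free of p53 elements, since a pair that lacks the central C or G of a unit was left out. The MDM2 stretch holds such a pair in lower case, with 3 mismatches and no central C in its first unit.
MDM2: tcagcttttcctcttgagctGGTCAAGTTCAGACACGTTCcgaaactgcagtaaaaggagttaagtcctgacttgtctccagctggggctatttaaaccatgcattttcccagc
SESN1: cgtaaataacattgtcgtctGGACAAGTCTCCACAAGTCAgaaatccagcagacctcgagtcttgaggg
GDF15: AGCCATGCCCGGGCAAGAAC
The MDM2 match had 2 mismatches, which 0.533% of all windows reach, and those of SESN1 and GDF15 had 3 each. PLK2 had a single exact 10-base unit (capitals, 132 to 123 bases before its start, within chr5:58460199-58460228, minus strand), as 6.63% of all windows do.
PLK2: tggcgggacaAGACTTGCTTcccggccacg
These matches describe the letters of the windows only. In MDM4, PPM1D, ZMAT3, BAX and BBC3 the windows searched held no match, and many p53 elements lie outside windows of this size.

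RPRD1B, the knocked-down gene, had 50.4 and 50.1 CPM (the count divided by the scaled library size) in shCtrl 1 and 2, against 27.2 and 35.5 CPM in shRPRD1B 1 and 2. The groups did not overlap, and the RPRD1B log2 fold change was -0.68 ± 0.16 (SE; edgeR adjusted p = 0.469, DESeq2 adjusted p = 0.0467). The libraries held between 47732913 and 65572391 counts. Among the 8966 genes of at least 16 CPM, the SD of the log2 ratio between the libraries of a group was 0.17 (shCtrl) and 0.39 (shRPRD1B), so the knockdown libraries differed more from each other. The quasi-likelihood test of edgeR, adjusted by Benjamini-Hochberg over 20319 genes, called 4 of them higher in the knockdown (0.0197%) and 3 lower (0.0148%). Without shRPRD1B 1 it called 3113 higher and 3237 lower, and without shRPRD1B 2 1213 and 1023, each time with a lone knockdown library assumed to vary like the controls. Several defining markers of other cell types were at or near 0: PTPRC and CD3E had at most 2 counts in any library, COL1A2 had 0 and DCN at most 4. Of the 6 leukocyte and 6 fibroblast markers, 2 and 4 had enough counts to be tested. The tested fibroblast markers summed to 38.04 and 33.5 CPM in shCtrl and to 24.5 and 22.2 CPM in shRPRD1B, and the leukocyte markers to 4.14 and 4.19 CPM and to 4.11 and 2.35 CPM. The 5 tested neuronal markers of 6 summed to 265 and 254 CPM in shCtrl and to 332 and 281 CPM in shRPRD1B, with 2 positive and 3 negative log2 fold changes and a median of -0.01. EdgeR and limma voom each called 0 neuronal and 0 fibroblast markers. DESeq2, which called 1.18% of all tested genes, called 2 neuronal markers higher and 1 fibroblast marker lower. The higher ones were INA and SYP (27.5 and 24.2 CPM against 77.3 and 78.0 CPM). The lower one was LUM (2.20 and 2.45 CPM against 0.870 and 0.620 CPM). Their edgeR adjusted p was 0.054 for SYP, 0.412 for INA and 0.355 for LUM. The part of these markers in the results was not tested, and in bulk RNA fewer cells of a type and less RNA per cell cannot be told apart. All 4 tested epithelial markers of 5 had negative log2 fold changes and summed to 92.8 and 89.2 CPM in shCtrl and to 84.6 and 58.5 CPM in shRPRD1B. KRT18 stood at 48.4 to 58.7 CPM, KRT8 at 27.1 and 24.9 CPM in shCtrl and at 22.9 and 6.46 CPM in shRPRD1B, and KRT19 had 0 counts. Of the 5 kidney lineage markers, 3 had enough counts to be tested. SIX2 stood at 68.9 to 71.3 CPM, PAX2 at 5.82 to 11.4 CPM and LHX1 at 0.201 to 0.349 CPM. PAX8 had at most 2 counts in any library and CDH6 at most 6.

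No gene of the 9 passed the threshold. EdgeR called 0 of 9 at an adjusted p under 0.05 (0.0345% of all tested genes), as did DESeq2 (which called 1.18% of all genes) and limma voom. At an unadjusted p under 0.05 edgeR had 1 of 9, PLK2, against 7.29% of all tested genes, a share too close to that background for a statement about the 9 genes. Their log2 fold changes ran from -0.19 for BBC3 to 0.95 for GDF15, with a median of 0.09 against 0.00 over all tested genes. The sign was positive for 8 of the 9 and for 50.5% of all tested genes. With upper-quartile factors it was positive for 6 of 9. Both knockdown libraries lay above both control libraries for 4 of 9 (MDM2, PPM1D, PLK2 and ZMAT3), against 20.3% of all tested genes, and below them for 0 of 9, against 20.6%. In either direction the groups were apart for 4 of 9 and for 40.9% of all tested genes. Without shRPRD1B 1 edgeR called 2 of the 9 higher (MDM2 and PLK2) and 1 lower (BBC3), and without shRPRD1B 2 it called 2 higher (PLK2 and GDF15). The same fits called 15.3% of all tested genes higher and 15.9% lower without shRPRD1B 1, and 5.97% higher and 5.03% lower without shRPRD1B 2, so these counts of the 9 are not read as a result about them. With 2 libraries a group, an exact two-sided permutation of the samples cannot give a p under 0.333. Because the genes were chosen with earlier results of these data known, the list was given no test of its own.

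**Figure D1:**
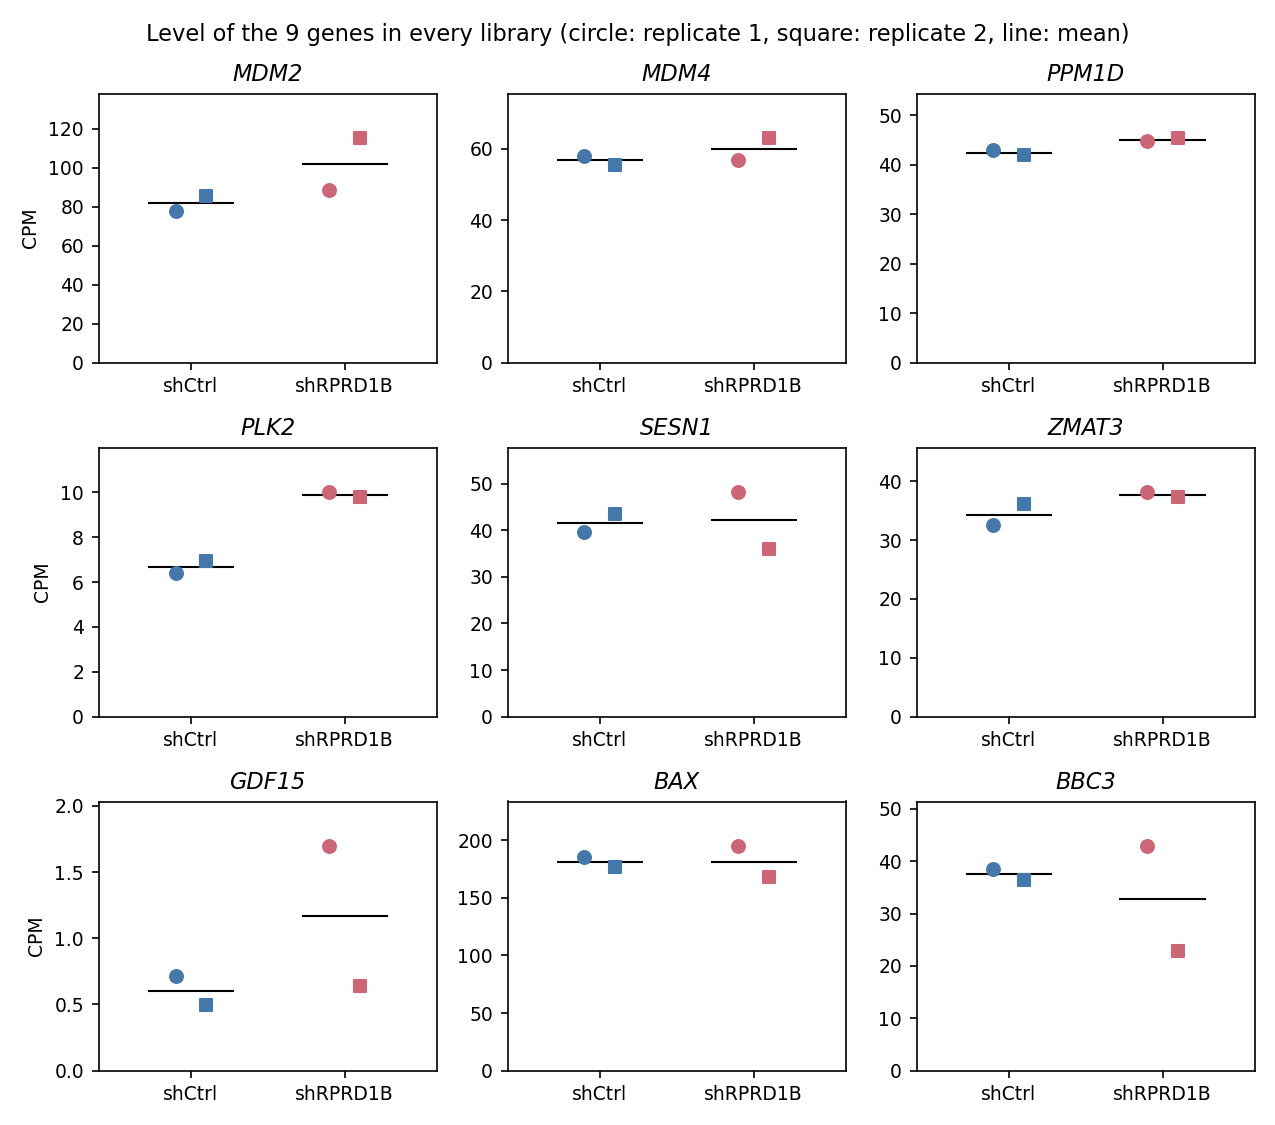
Level of each of the 9 genes in CPM (vertical axis, from 0, scaled separately per gene) in the 2 shCtrl and 2 shRPRD1B libraries; circles are replicate 1, squares replicate 2 and lines the group means. PLK2 separates the groups with little spread, while GDF15, BBC3, SESN1 and BAX have 1 knockdown library above both controls and, for BBC3, SESN1 and BAX, the other below both.

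Levels were compared between genes per kilobase of exon (RPKM, with CPM divided by the length of all annotated exons in GENCODE 29). BAX was the most abundant of the 9, at a mean of 70.0 RPKM over the 4 libraries and between 64.9 and 75.2 RPKM. BBC3 followed at a mean of 11.1 RPKM (7.19 to 13.5), then PPM1D at 8.67 (8.30 to 8.99), SESN1 at 8.17 (7.05 to 9.40) and MDM2 at 6.91 RPKM (5.86 to 8.67). The ranges of BBC3, PPM1D, SESN1 and MDM2 over the 4 libraries overlapped, and their order by mean did not hold in every library. PPM1D stood above MDM2 in each library, and BBC3 fell below PPM1D only in shRPRD1B 2 (7.19 against 8.99 RPKM). MDM4 at 5.30 RPKM (5.04 to 5.72), ZMAT3 at 3.73 RPKM (3.37 to 3.95), PLK2 at 1.74 RPKM (1.34 to 2.10) and GDF15 at 0.424 RPKM (0.236 to 0.812) each lay in a range of their own below these. The exon length counts every annotated exon, used or not, so it lowers the RPKM of genes with many alternative exons. The identifiers counted carry other version numbers than GENCODE 29 for all 9 genes (ENSG00000135679.27 against ENSG00000135679.23 for MDM2). Counts and lengths therefore come from different annotation releases.

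The first group of genes holds p53 in check. MDM2 is a ubiquitin ligase that targets p53, MDM4 is its paralogue, which binds and inhibits p53 with little ligase activity of its own, and PPM1D encodes the phosphatase WIP1, which removes activating phosphates from p53 and from the kinases of the damage response. MDM2 (ENSG00000135679.27, chromosome 12, 68808172 to 68850686 in GRCh38) had 77.9 and 85.6 CPM in shCtrl 1 and 2 and 88.6 and 115 CPM in shRPRD1B 1 and 2. Each knockdown library was above each control, but shRPRD1B 1 was closer to shCtrl 2 than to shRPRD1B 2. MDM2 averaged 81.8 ± 5.48 CPM in shCtrl and 102 ± 18.8 CPM in shRPRD1B (SD, n = 2 each), a log2 fold change of 0.32 ± 0.16 (SE, 95% interval -0.08 to 0.71, edgeR adjusted p = 0.704). The MDM2 difference depended on which knockdown library was used: it was 0.49 without shRPRD1B 1 (edgeR adjusted p = 2.44e-05, with the lone knockdown library assumed to vary like the controls) and 0.12 without shRPRD1B 2 (edgeR adjusted p = 0.365).

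MDM4 (ENSG00000198625.14, chromosome 1, 204516406 to 204558120) had 58.0 and 55.5 CPM in shCtrl and 56.9 and 62.9 CPM in shRPRD1B. The groups overlapped, with shRPRD1B 1 between the controls, and the MDM4 log2 fold change was 0.08 ± 0.11 (95% interval -0.21 to 0.36, edgeR adjusted p = 0.866). Per length, MDM2 stood at 1.11 and 1.28 times MDM4 in shCtrl 1 and 2 and at 1.29 and 1.52 times MDM4 in shRPRD1B 1 and 2. The ratio in shRPRD1B 1 was therefore next to that of shCtrl 2, and the ratio in shRPRD1B 2 was the highest. PPM1D (ENSG00000170836.13, chromosome 17, 60600193 to 60666280) varied least, with 42.9 and 41.9 CPM in shCtrl and 44.8 and 45.3 CPM in shRPRD1B. Its knockdown libraries lay just above the controls, a log2 fold change of 0.09 ± 0.11 (95% interval -0.18 to 0.35, edgeR adjusted p = 0.838).

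The second group acts on growth, the centrosome and RNA. PLK2 is a polo-like kinase of centriole duplication that is also induced by synaptic activity, SESN1 is a sestrin that restrains the growth kinase mTORC1 when amino acids or DNA integrity are limiting, and ZMAT3 is a zinc finger protein that binds RNA and affects splicing. PLK2 (ENSG00000145632.15, chromosome 5, 58453982 to 58460086) had 6.40 and 6.95 CPM in shCtrl and 10.0 and 9.80 CPM in shRPRD1B, from 303 to 655 counts a library. The gap between its groups was far wider than that between the libraries of either group. The PLK2 means were 6.67 ± 0.388 and 9.90 ± 0.141 CPM (SD, n = 2 each), 1.48 times as high in shRPRD1B, with a log2 fold change of 0.57 ± 0.17 (95% interval 0.14 to 1.001). Its unadjusted edgeR p was 0.0186, lower than for all but 2.96% of tested genes, and its adjusted p was 0.627 with edgeR and 0.320 with DESeq2. The PLK2 difference changed little with the knockdown library used: it was 0.55 without shRPRD1B 1 and 0.58 without shRPRD1B 2 (edgeR adjusted p = 0.0174 and 0.0339, each with a lone knockdown library). Without shCtrl 1 and without shCtrl 2 it was 0.51 and 0.63 (edgeR adjusted p = 0.9999 and 0.9997, each with a lone control library).

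SESN1 (ENSG00000080546.14, chromosome 6, 108984309 to 109094846) had 39.6 and 43.5 CPM in shCtrl and 48.1 and 36.1 CPM in shRPRD1B. One knockdown library lay above both controls and the other below both, so the SESN1 log2 fold change of 0.02 ± 0.17 (95% interval -0.40 to 0.44, edgeR adjusted p = 0.981) averaged opposite differences. It was 0.21 without shRPRD1B 2 and -0.20 without shRPRD1B 1, and its sign also turned without shCtrl 1 (-0.05). ZMAT3 (ENSG00000172667.11, chromosome 3, 179017223 to 179072513) had 32.5 and 36.1 CPM in shCtrl and 38.1 and 37.3 CPM in shRPRD1B. The ZMAT3 knockdown libraries were alike and just above shCtrl 2, with a log2 fold change of 0.14 ± 0.12 (95% interval -0.16 to 0.43, edgeR adjusted p = 0.787).

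The third group is the secreted factor GDF15 and the apoptosis genes BAX and BBC3. GDF15 is a distant member of the TGF-beta family, released by stressed cells, that lowers appetite through a receptor in the brainstem. GDF15 (ENSG00000130513.7, chromosome 19, 18386158 to 18389176) was barely expressed, with 34 and 24 counts in shCtrl 1 and 2 and 111 and 35 counts in shRPRD1B 1 and 2. On the CPM scale these are 0.718, 0.493, 1.69 and 0.639 CPM, and the exact 95% Poisson interval, which covers counting error only, was 1.39 to 2.04 CPM in shRPRD1B 1 and 0.445 to 0.888 CPM in shRPRD1B 2. The library shRPRD1B 1 stood above the other 3, and shRPRD1B 2 stood between the controls. GDF15 therefore had the largest fold change of the 9 and also the widest interval (log2 fold change 0.95 ± 0.55, 95% interval -0.41 to 2.31, edgeR adjusted p = 0.721). Without shRPRD1B 2 it was 1.48 (edgeR adjusted p = 0.0130, with a lone knockdown library) and without shRPRD1B 1 it was 0.08.

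BAX forms the pores in the outer mitochondrial membrane that release cytochrome c. BAX (ENSG00000087088.21, chromosome 19, 48954875 to 48961798) had 185 and 177 CPM in shCtrl and 195 and 168 CPM in shRPRD1B. Its controls lay between the knockdown libraries, and the BAX log2 fold change was 0.00 ± 0.12 (95% interval -0.30 to 0.30, edgeR adjusted p = 0.998), an interval that leaves room for 0.812 to 1.23 times the control level. BBC3 encodes PUMA, a protein with a BH3 domain that blocks the survival proteins of the BCL2 family and frees BAX to act. BBC3 (ENSG00000105327.18, chromosome 19, 47220824 to 47232860) had 38.6 and 36.4 CPM in shCtrl and 42.8 and 22.9 CPM in shRPRD1B. The knockdown libraries lay on either side of the controls, so the BBC3 log2 fold change of -0.19 ± 0.29 (95% interval -0.92 to 0.54, edgeR adjusted p = 0.873) stood for neither of them. It was -0.71 without shRPRD1B 1 (edgeR adjusted p = 1.17e-05, with a lone knockdown library) and 0.19 without shRPRD1B 2 (edgeR adjusted p = 0.169).

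**Figure D2:**
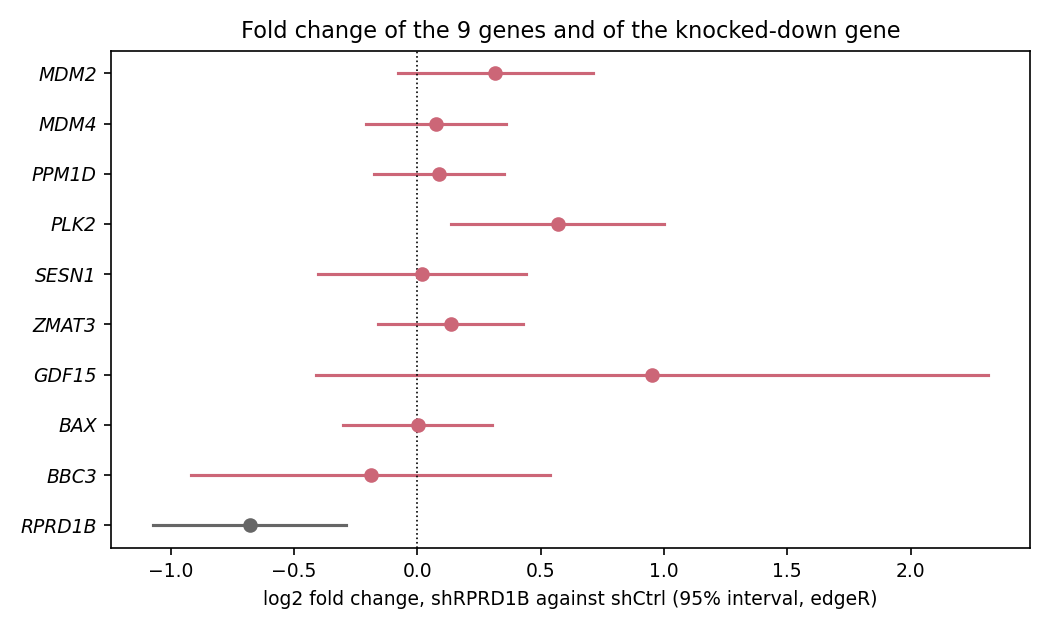
Log2 fold change of shRPRD1B against shCtrl (horizontal axis) from edgeR for each of the 9 genes and, in grey, RPRD1B; points are estimates and lines their 95% intervals. The interval of PLK2, from 0.14 to 1.001, is the single one of the 9 that leaves out 0, and that of GDF15, from -0.41 to 2.31, is the widest.

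The knockdown libraries themselves differed in several of the 9 genes. All 9 stood above the control mean in shRPRD1B 1, and 6 stood above and 3 below it in shRPRD1B 2, where 50.3% and 50.0% of all tested genes stood above it. The log2 level in shRPRD1B 2 minus that in shRPRD1B 1 ran from -1.36 for GDF15, -0.91 for BBC3, -0.42 for SESN1 and -0.21 for BAX, through -0.03 for ZMAT3, -0.03 for PLK2 and 0.02 for PPM1D, to 0.15 for MDM4 and 0.38 for MDM2. Of all tested genes, 4.96% had a wider gap between the knockdown libraries than GDF15 and 12.1% a wider one than BBC3. Between the control libraries the difference ran from -0.51 for GDF15 to 0.15 for ZMAT3, and it was smaller in size than between the knockdown libraries for 6 of the 9, the exceptions being PPM1D, PLK2 and ZMAT3.

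**Figure D3:**
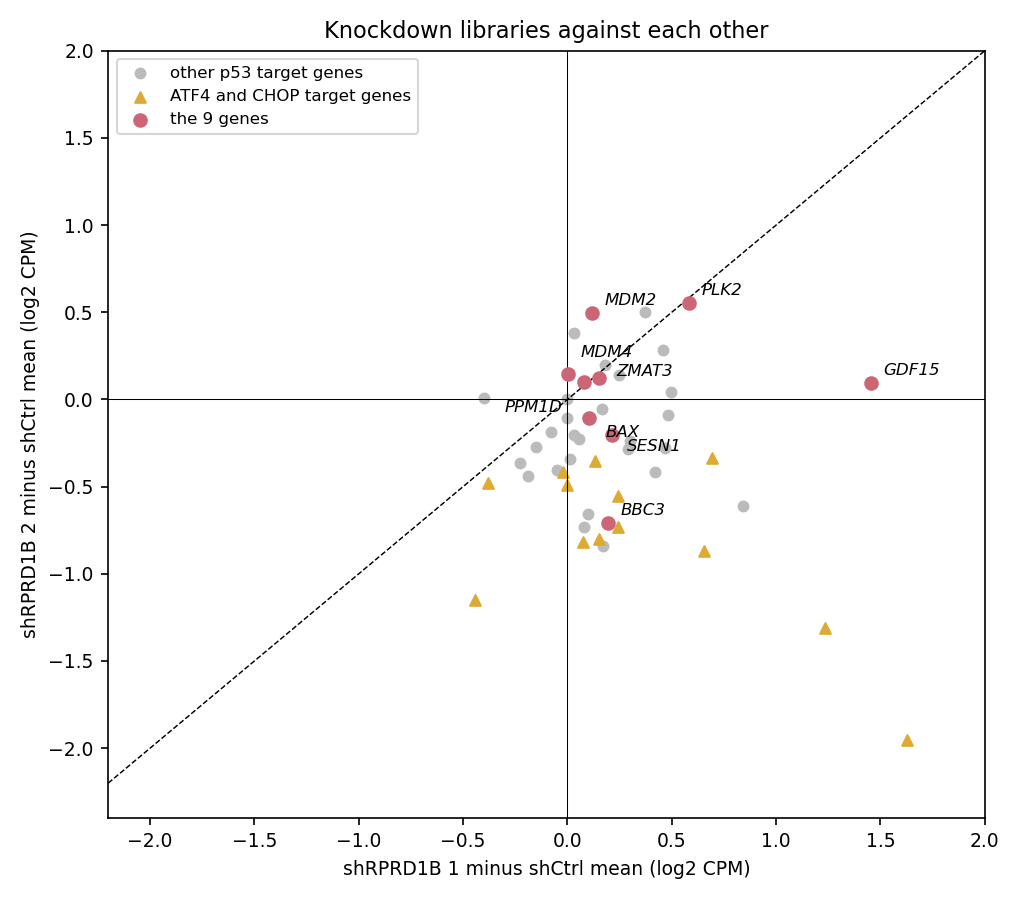
Log2 CPM of shRPRD1B 1 (horizontal axis) and shRPRD1B 2 (vertical axis), each minus the shCtrl mean, for the 9 genes (red, named) and the 27 tested other p53 target genes (grey). Yellow triangles are the 13 tested genes of the ATF4 and CHOP list, which holds ATF4 and the CHOP gene DDIT3 themselves besides targets. The dashed line marks equal differences. PLK2 lies next to that line at 0.58 and 0.55, GDF15 and BBC3 lie below it, and all 13 genes of the ATF4 and CHOP list lie below 0 on the vertical axis.

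Transcript length and base composition moved with that gap. MDM2 and MDM4, with the longest transcripts of the 9 (12633 and 10073 bases) and a GC content of 41.9% and 42.4%, were higher in shRPRD1B 2 than in shRPRD1B 1. GDF15, BAX and BBC3 have short transcripts (1200, 1358 and 1838 bases) that are rich in GC (62.9%, 58.9% and 69.7%), and were lower there. SESN1 (3509 bases, 43.4% GC) and ZMAT3 (9406 bases, 39.5% GC) did not follow this order, with a lower level of SESN1 in shRPRD1B 2 and nearly equal levels of ZMAT3. Across the 9 genes the gap had a Pearson correlation of 0.79 with log2 length and of -0.80 with GC content. Over the 8913 genes of at least 16 CPM with a GENCODE 29 transcript these were 0.45 and -0.45. Between the control libraries they were 0.62 and -0.67 across the 9 genes. The genes share their libraries and are not independent, and length and GC content go together, so these values are descriptions. A correction for both was chosen after seeing the data. It was fitted per library over tested genes with a mean of at least 1 CPM, a level that GDF15 did not reach, and then applied to all 9. With it the MDM2 log2 fold change was 0.19 ± 0.09 (edgeR adjusted p = 0.552). The MDM4 value turned to -0.04 ± 0.10 and that of PLK2 was 0.57 ± 0.17 (edgeR adjusted p = 0.393). The corrected gap between the knockdown libraries was -0.90 for GDF15 and -0.36 for BBC3. It was wider than the uncorrected gap for SESN1 (-0.51 against -0.42) and ZMAT3 (-0.27 against -0.03). The same held for PPM1D (-0.12 against 0.02) and PLK2 (-0.05 against -0.03), while the gap of the remaining genes narrowed.

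**Figure D4:**
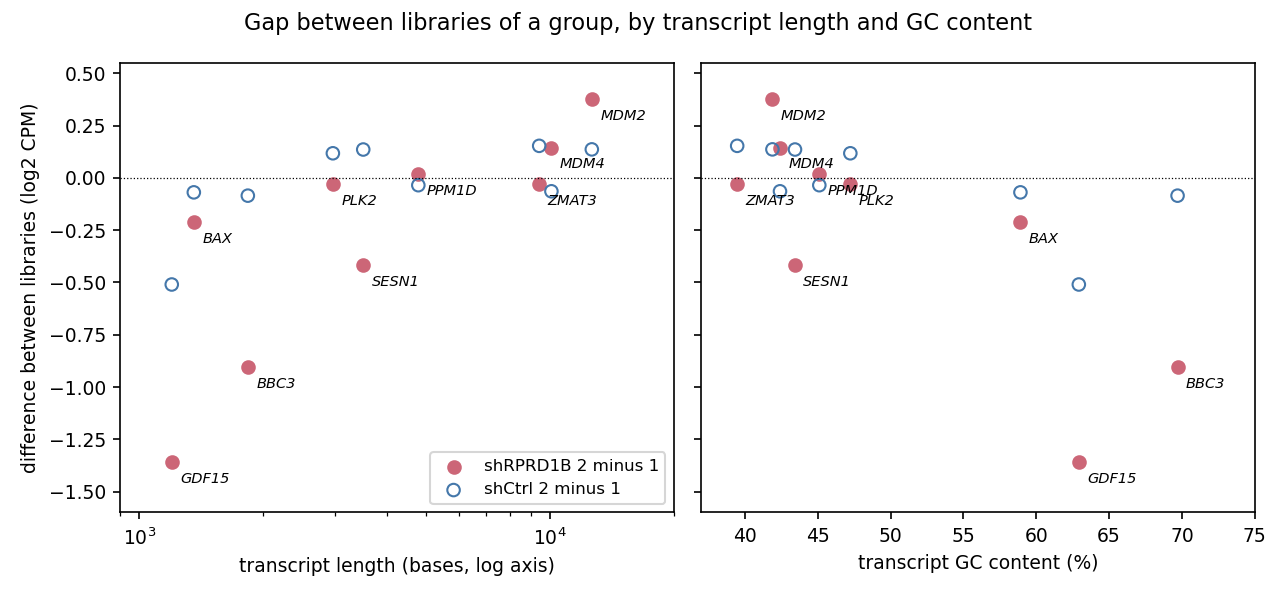
Log2 CPM of replicate 2 minus replicate 1 (vertical axis) for shRPRD1B (filled, named) and shCtrl (open) against transcript length (left, log axis) and GC content (right) of the 9 genes. MDM2, the longest at 12633 bases, is highest at 0.38, and GDF15 and BBC3, short and rich in GC, are lowest at -1.36 and -0.91.

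GDF15 and BBC3 are also known targets of ATF4 and CHOP, the transcription factors of the integrated stress response. A list of 14 genes was examined beside them, which holds ATF4, the CHOP gene DDIT3 and XBP1 besides targets. Of the 13 tested, all 13 were lower in shRPRD1B 2 than in shRPRD1B 1, against 50.4% of all tested genes, with a median gap of -0.90, and all 13 stood below the control mean in shRPRD1B 2. Their summed level was 1610 and 1569 CPM in shCtrl, 1813 CPM in shRPRD1B 1 and 1083 CPM in shRPRD1B 2. Such a sum follows its most abundant genes. DDIT4 alone had 137 and 133 CPM in shCtrl and 318 and 54.5 CPM in shRPRD1B 1 and 2. In shRPRD1B 1, 9 of the 13 stood above the control mean (50.3% of all tested genes). The part of this response in the GDF15 and BBC3 values was not tested. Between the groups edgeR called 0 of the 13 and DESeq2 0, with 2 lower at an unadjusted p under 0.05 (3.77% of all tested genes). The latter 2 were PPP1R15A, which helps end the translation block of the response (35.8 ± 1.40 CPM in shCtrl and both knockdown libraries lower, at 27.4 and 25.6 CPM), and the cystine transporter gene SLC7A11 (18.0 and 18.6 CPM in shCtrl, 13.4 and 8.21 CPM in shRPRD1B). ATF4 itself had 827 and 809 CPM in shCtrl and 816 and 581 CPM in shRPRD1B, and PSAT1, of serine synthesis, 270 and 266 CPM and 264 and 201 CPM. EdgeR called 12 of the 13 without shRPRD1B 1 (31.3% of all genes), 6 without shRPRD1B 2 (11%) and 2 with no low-count filter (1.7%).

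Of 30 other p53 target genes, 27 were tested. The median log2 fold change was 0.00, with 13 positive and 14 negative. EdgeR and DESeq2 each called 0 of them, but edgeR called 16 without shRPRD1B 1 (median -0.23) and 10 without shRPRD1B 2 (median 0.10), against 31.3% and 11% of all genes. At an unadjusted p under 0.05 there was 1 higher and 1 lower (3.52% and 3.77% of all tested genes). The higher gene was RRM2B, the subunit of ribonucleotide reductase that p53 induces for DNA repair, with 37.1 and 38.9 CPM in shCtrl and 49.2 and 53.7 CPM in shRPRD1B (log2 fold change 0.44 ± 0.11, edgeR adjusted p = 0.540). The lower was PERP, a desmosomal membrane protein, with 159 and 149 CPM in shCtrl and 132 and 120 CPM in shRPRD1B (-0.30 ± 0.11, edgeR adjusted p = 0.674). TP53INP1, an autophagy and stress protein, had 11.1 and 13.1 CPM in shCtrl and 16.6 and 14.7 CPM in shRPRD1B, and CCNG1, cyclin G1, had 243 and 248 CPM in shCtrl and 278 and 281 CPM in shRPRD1B. In each of these 4 genes, named for their small p, the groups did not overlap. Of the 27, both knockdown libraries lay above both controls for 4 and below both for 3, against 20.3% and 20.6% of all tested genes. The level was lower in shRPRD1B 2 than in shRPRD1B 1 for 22 of the 27 genes and for 6 of the 9 genes above, against 50.4% of all tested genes.

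Proteins that act on p53 were tested for all 21 genes listed, with a median of 0.06. Neither edgeR nor DESeq2 called any (0 of 21), and 0 had an unadjusted p under 0.05, against 7.29% of all tested genes. EdgeR called 13 of 21 without shRPRD1B 1, 2 without shRPRD1B 2 and 1 with no low-count filter, against 31.3%, 11% and 1.7% of all genes. HUWE1, a ubiquitin ligase of p53 and MYC, had 405 and 446 CPM in shCtrl and 455 and 584 CPM in shRPRD1B. The acetyltransferase gene CREBBP had 106 and 119 CPM in shCtrl and 110 and 207 CPM in shRPRD1B, and the kinase gene HIPK2 had 100.5 and 119 CPM and 110 and 171 CPM. HUWE1, CREBBP and HIPK2 were each highest in shRPRD1B 2. But 8 of the 21 genes were lower there than in shRPRD1B 1, against 50.4% of all tested genes. The gap over the list ran from -1.36 to 0.92, and its low end is DAXX, which had only 3 to 18 counts a library. Of the 13 tested paralogues of the 9 genes and of p53, 1 was higher at an unadjusted p under 0.05 and 1 lower. These compare with 3.52% and 3.77% of all tested genes. EdgeR and DESeq2 each called 0 of the 13, and the median was -0.02. EdgeR called 7 of 13 without shRPRD1B 1 and 3 without shRPRD1B 2, against 31.3% and 11% of all genes. TP73, which encodes the p53 relative p73, had 20.3 and 17.1 CPM in shCtrl and 30.5 and 25.9 CPM in shRPRD1B (0.59 ± 0.16, edgeR adjusted p = 0.547). GDF11, a relative of GDF15, had 68.6 and 68.9 CPM in shCtrl and 57.8 and 54.8 CPM in shRPRD1B (-0.29 ± 0.11, edgeR adjusted p = 0.674). Among the other polo-like kinases PLK4 had 41.5 and 44.3 CPM and 47.8 and 52.7 CPM, and the phosphatase gene PPM1G had 342 and 327 CPM and 285 and 292 CPM. SESN2, the stress-induced sestrin, had at most 7 counts in any library and was not tested.

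The partners of BAX and BBC3 in apoptosis gave a median of 0.02 over 18 tested genes of 19. At an unadjusted p under 0.05, 2 were higher and 0 lower, against 3.52% and 3.77% of all tested genes. Neither edgeR nor DESeq2 called any (0 of 18), while edgeR called 9 without shRPRD1B 1 and 1 without shRPRD1B 2 (31.3% and 11% of all genes). Among the genes with an unadjusted p under 0.05 was BCL2, the founding survival gene of the family, with 9.37 and 9.10 CPM in shCtrl and 11.8 and 12.6 CPM in shRPRD1B (0.40 ± 0.16, edgeR adjusted p = 0.679). HRK, another gene of the BH3 kind, had 13.2 and 14.3 CPM in shCtrl and 11.2 and 9.23 CPM in shRPRD1B. CYCS, the cytochrome c gene, had 333 and 334 CPM and 290 and 286 CPM. The groups did not overlap in BCL2, where shRPRD1B was higher, nor in HRK and CYCS, where it was lower. Over the 18 genes this held for 3 higher and 3 lower, against 20.3% and 20.6% of all tested genes.

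The 3 genes whose pattern over the 4 libraries was most like that of MDM2, by the Euclidean distance between centred log2 CPM values among 10682 protein-coding genes of at least 5 CPM, were ATXN1, ZBTB39 and MTR (distances of 0.0163, 0.0192 and 0.0206). MTR, the methionine synthase gene, had 142 and 154 CPM in shCtrl and 161 and 206 CPM in shRPRD1B. With 4 libraries such likeness is easily reached, and it is a description. In GENCODE 29, 9.21% of the exon bases of MDM2 are shared with other annotated genes, 7.09% of those of SESN1 and 2.52% of those of BBC3, and 0 bases of the other 6, so reads in these parts of MDM2, SESN1 and BBC3 may have been assigned elsewhere or left out.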

How the data were processed

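Poly(A) RNA of 4 HEK293T samples, 2 shCtrl and 2 shRPRD1B, was grouped by the sample titles. The values deposited by the authors are raw read counts, 1 whole number per gene and sample. Per the submitters' processing notes, Trim Galore, HISAT2 and featureCounts were used with hg38. Not given in the sources used here were versions, annotation release, strand setting and the treatment of reads with several positions, so overlapping and antisense genes cannot be told apart.

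EdgeR 4.0.16 (R 4.3.3) was run with TMM factors, filterByExpr at a minimum count of 10, a robust quasi-likelihood fit with group as the only term, and Benjamini-Hochberg adjustment over 20319 genes at 0.05. Library sizes for CPM were scaled by TMM, with a prior count of 2 on the log2 scale. The fit was tested on simulated data. DESeq2 1.42.0, limma 3.58.1 voom, other factors and filters, a replicate block and leaving out each library were alternatives. Of 69222 identifiers, 62686 matched a symbol. Length and GC content came from GENCODE 29, with 1 transcript per gene (mgcv 1.9.3 for the correction, 93.3% of tested genes). Exon lengths and shared exon bases came from GENCODE 29 too, which is not the release that was counted.

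The 9 genes and the lists beside them were chosen with earlier results of these data known. From each of the other 5 gene lists up to 4 genes with the smallest edgeR p are named, and 2 such genes are not reported here. The marker genes named were chosen after their values were seen. No library was counted as a duplicate: the ratio of chi-square to its degrees of freedom between libraries was 8.61 in shCtrl and 99.7 in shRPRD1B, above that of sampling noise.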

Additional observations from a re-analysis of the deposited data

How the results depend on the processing

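The 9 genes had 0 calls under each alternative that kept all 4 libraries, and their median log2 fold change stayed between 0.06 and 0.09 except after correction for transcript length and GC content, where it was 0.0416. Leaving out 1 library gave medians from 0.0896 to 0.151, 0 to 2 of the 9 called higher and 0 to 1 lower, and 11 to 3113 genes called higher and 25 to 3237 lower over all genes tested. Over all genes the calls, higher and lower, were 126 and 114 with DESeq2, 0 and 0 with limma voom, 334 and 308 with no low-count filter, 0 and 0 with at least 5 CPM in 2 libraries (GDF15 was not tested there), and 21 and 21 with the length and GC correction, against 4 and 3 in the fit reported. The sign of BAX turned with upper-quartile factors (-0.0236), limma voom (-0.0018), at least 5 CPM in 2 libraries (-0.0088), the replicate block (-0.0020), and when 1 library was left out (from -0.110 to 0.104). That of SESN1 turned with upper-quartile factors (-0.0037), and when 1 library was left out (from -0.204 to 0.213), that of BBC3 when 1 library was left out (from -0.714 to 0.194) and that of MDM4 with the length and GC correction (-0.0361). The cause was not tested.

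With the replicate number as a block, 76 genes were called higher and 51 lower, and 0 of the 9. The labels do not say that a number marks a shared culture or day. The deviations of same-numbered libraries had a correlation of 0.21 over genes of at least 16 CPM, and 2 pairs are too few to tell a pairing from it. Depth limited GDF15 most, with 24 to 111 counts a library.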
